A study of Homo sapiens with 20 samples.

Results

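The genes described here are CYR61, CTGF, ANKRD1 and AMOTL2, 4 established targets of the YAP/TEAD transcription programme. They were followed through H3K27ac, a histone acetylation that marks promoters and enhancers in use. Members were chosen by position: every H3K27ac peak that overlapped the hg19 windows chr1:85950001-86150000 for CYR61, chr6:132150001-132400000 for CTGF, chr10:92600001-92800000 for ANKRD1 and chr3:134040001-134250000 for AMOTL2. This gave 338 peaks of 458811 in 4 libraries: 65 and 53 in GFP replicates 1 and 2, and 117 and 103 in SMARCB1 replicates 1 and 2. The rule used positions alone, but the 4 genes and their windows were chosen with earlier results of these data known.

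The cells were G401, a human rhabdoid tumour cell line whose genotype is given as SMARCB1(-/-). SMARCB1 is a core subunit of SWI/SNF chromatin remodelling complexes, and its loss defines rhabdoid tumours. All 4 libraries shared this genotype and a doxycycline (dox) induction, of GFP in the 2 control libraries and of SMARCB1 in the other 2. The comparison asks how acetylation around these genes differs once the missing subunit is induced. The dose and time of dox, and whether the cells were 1 clone or a pool, are not given in the sources used here. The series held 20 samples in 10 groups, and the 16 samples of H3K4me3, H3K4me1, SMARCA4 and input DNA were not analysed here. Peak lists cannot show how much SMARCB1 the cells made, so the labels were not checked by its level.

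YAP and TAZ are transcriptional co-activators that do not bind DNA themselves and act largely through TEAD factors. The Hippo kinases, ending in LATS1 and LATS2, phosphorylate YAP and TAZ and keep them out of the nucleus, and cell contact, stiffness of the surroundings and the actin skeleton act on this pathway. CYR61 (now CCN1) and CTGF (now CCN2) are secreted matricellular proteins, ANKRD1 is an ankyrin repeat protein of muscle sarcomeres and the nucleus, and AMOTL2 is an angiomotin family protein that binds YAP and restrains it.

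The short sequence read by TEAD factors is shown in the promoters of these genes, because it is the feature that the group's name rests on. RefSeq held promoter entries for 3 of the 4 genes, given here as the 250 bases before each annotated start in GRCh38.p14, 5′ to 3′ along the gene's strand. Capitals mark GGAATG, or CATTCC where the match lies on the other strand. The CTGF promoter is chr6:131951373-131951622, minus strand. The ANKRD1 promoter is chr10:90921088-90921337, minus strand. The first of 2 AMOTL2 entries is chr3:134374448-134374697, minus strand.
CTGF promoter: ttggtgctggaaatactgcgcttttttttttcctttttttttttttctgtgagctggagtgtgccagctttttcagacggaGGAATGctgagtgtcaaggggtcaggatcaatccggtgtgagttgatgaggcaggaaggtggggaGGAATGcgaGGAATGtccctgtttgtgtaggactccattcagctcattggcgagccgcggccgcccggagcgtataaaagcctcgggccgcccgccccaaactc
ANKRD1 promoter: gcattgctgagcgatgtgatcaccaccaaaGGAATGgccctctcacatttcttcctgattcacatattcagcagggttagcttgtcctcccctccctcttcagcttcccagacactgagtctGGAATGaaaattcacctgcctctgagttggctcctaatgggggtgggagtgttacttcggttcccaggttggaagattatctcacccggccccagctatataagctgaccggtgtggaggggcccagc
AMOTL2 promoter, first entry: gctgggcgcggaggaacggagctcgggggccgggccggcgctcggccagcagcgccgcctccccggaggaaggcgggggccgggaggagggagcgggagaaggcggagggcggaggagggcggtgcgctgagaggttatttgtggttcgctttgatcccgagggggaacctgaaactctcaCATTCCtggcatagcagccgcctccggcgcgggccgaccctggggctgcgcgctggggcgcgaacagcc
CTGF held 3 matches, whose first bases lie 169, 104 and 95 bases before the start. ANKRD1 held 2 matches, at 220 and 128 bases, and AMOTL2 held 1 on the other strand, at 69 bases. The second AMOTL2 entry, chr3:134375418-134375667, held none. Of 35114 promoter entries of the same length, 11.9% held at least 1 match on either strand, 0.940% at least 2 and 0.0826% at least 3. The AP-1 motif TGANTCA, searched on both strands and not overlapping a GGAATG match, was found once, in ANKRD1 at 195 bases before the start. It was present in 6.57% of all entries. These matches describe letters only. Their positions are in GRCh38, and the peaks below are in hg19, so the promoters were not placed among the peaks.

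The 4 lists differed in length and depth. They held 98251 and 79555 peaks with GFP and 145533 and 135472 with SMARCB1. The background expected at a summit, recovered from the deposited fold and p, was 1.82 and 3.74 fragments with GFP and 4.78 and 3.89 with SMARCB1. For SMARCB1 replicate 1 this is the value before the scale of 0.855 that its counts needed, and 4.09 after it. By this measure GFP replicate 1 was the shallowest library. Fragment counts scaled to the GFP backgrounds are given below for the strongest gained region of CTGF and of ANKRD1. The other gained regions are mostly covered by counts of regions alone, and blocks without a GFP peak have no scaled count. The labels do not say that replicates came from separate cultures, so tests measure only the spread between these libraries. With 2 libraries against 2, 0.333 is the smallest p that an exact permutation test (two-sided) allows, so no difference here could pass the usual threshold.

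Peaks covered more of the CYR61, CTGF and ANKRD1 windows and less of the AMOTL2 window with SMARCB1 than with GFP, and in each window both SMARCB1 libraries lay on the same side of both GFP libraries. The difference was proportionally greatest in the ANKRD1 window, where a stretch without any GFP peak held 13 peaks in SMARCB1 replicate 1 and 8 in SMARCB1 replicate 2. Covered length is the number of base pairs inside a window that lie under a peak. Over 6962 windows of 200 kb tiled along the genome, 53.2% had a higher covered length in both SMARCB1 libraries than in both GFP libraries and 18.1% had a lower one. Against those shares, 3 of the 4 gene windows were higher and 1 was lower. The CTGF and AMOTL2 windows, at 250 and 210 kb, are longer than the tiled ones. The median log2 ratio of mean covered length, SMARCB1 over GFP, was 0.63 over the 4 windows and 0.31 over the 5860 tiled windows with peaks in both groups.

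**Figure D1:**
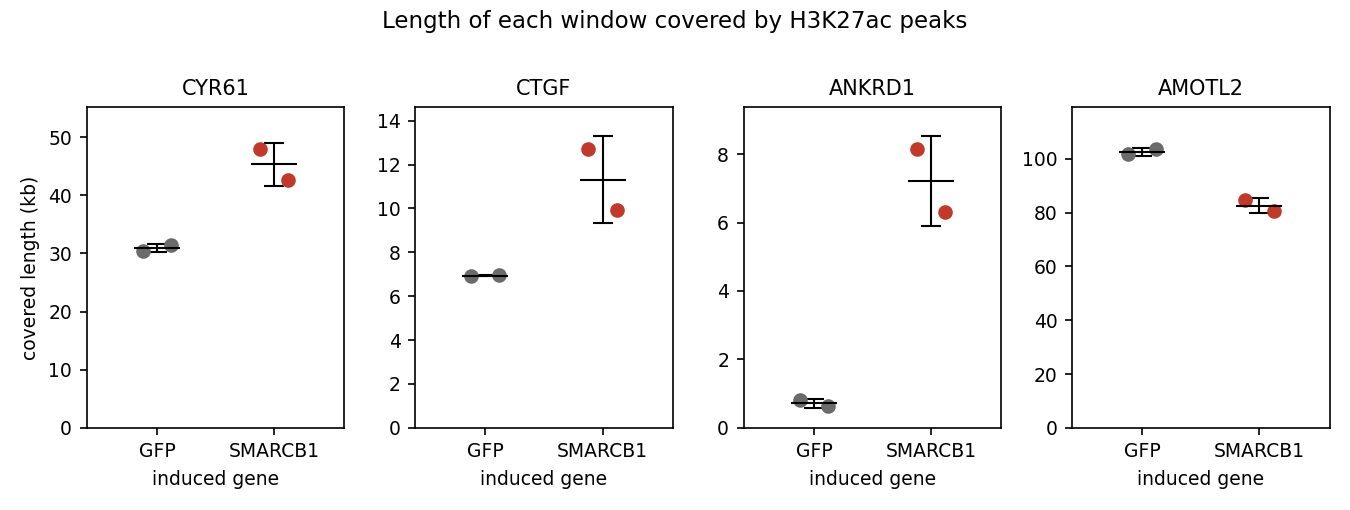
Length covered by H3K27ac peaks (kb, vertical axis from 0, scaled separately in each panel) in the windows of CYR61, CTGF, ANKRD1 and AMOTL2, by induced gene. Points are the 4 libraries, long bars are group means and whiskers are 1 SD with 2 libraries per group; the groups are apart in all 4 panels, with SMARCB1 above GFP in the first 3 and below it for AMOTL2.

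CYR61 encodes a secreted protein that binds integrins and is a widely used readout of YAP. Peaks covered 30425 and 31362 bp of its 200 kb window in GFP replicates 1 and 2, against 47926 and 42664 bp in SMARCB1 replicates 1 and 2. Both SMARCB1 libraries were above both GFP libraries, with the nearest pair 11302 bp apart. The mean was 30893.5 ± 663 bp with GFP and 45295 ± 3721 bp with SMARCB1 (SD, n = 2 each), a difference of 14401.5 bp and a log2 ratio of 0.55 (exact permutation p = 0.333, also 0.333 after Benjamini-Hochberg adjustment over the 4 windows). The number of peaks was 29 and 25 with GFP and 52 and 51 with SMARCB1, without overlap between the groups (exact permutation p = 0.333, adjusted 0.444). Both SMARCB1 lists were longer genome-wide, and the share of tiled windows whose peak numbers did not overlap was not computed. With each list limited to its strongest 79555 peaks, as many as the shortest list held, the difference in peak number fell from 24.5 to 9. The difference in covered length was then 9400 bp. At those equal numbers, 40.2% of tiled windows were higher and 28.7% lower in both SMARCB1 libraries, and the same 3 gene windows were higher and the AMOTL2 window lower.

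The strongest acetylation of the CYR61 window was of similar extent in all 4 libraries. Overlapping peaks of different libraries were joined into merged regions. The one with the highest fold enrichment was chr1:86032358-86051396, 19039 bp long. Fold enrichment is the authors' value for a peak's summit over the caller's background, and it serves here to describe peaks within a list. The region was covered over 18235, 18668, 18339 and 18065 bp in GFP replicates 1 and 2 and SMARCB1 replicates 1 and 2, so the groups overlapped. Its highest fold was 23.0, 17.5, 11.8 and 18.0 in the same order. The caller divided this domain into 2 and 4 peaks with GFP and into 3 and 8 with SMARCB1.

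The length that SMARCB1 libraries added near CYR61 lay mostly at higher coordinates than that domain. When regions at most 10 kb apart were grouped, the block chr1:86069127-86098877 was covered over 4006 and 4025 bp in the GFP libraries against 13304 and 12683 bp in the SMARCB1 libraries, 3.24 times as much on average. Its highest fold was 7.08 and 6.12 in the GFP lists and 13.1 and 10.2 in the SMARCB1 lists. This block was acetylated in all 4 libraries, with 8 and 4 peaks in the GFP libraries against 16 and 11 in the SMARCB1 libraries. A block with no GFP peak, chr1:86119667-86122629, was covered over 1646 and 899 bp with SMARCB1. In the other direction, chr1:85983445-85993686 was covered over 6266 and 6098 bp in the GFP libraries against 5245 and 4411 bp in the SMARCB1 libraries, 0.781 times as much. The CYR61 window therefore held stretches that moved in opposite directions.

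A merged region counted as gained where it held a peak of each SMARCB1 library and none of a GFP library, and as lost where the reverse was true. Of 167933 merged regions in the genome, 17.5% were gained and 3.94% were lost. The CYR61 window held 54 regions, of which 11 (20.4%) were gained, 1 was lost and 13 had a peak in all 4 libraries. Among those 13, the covered length was higher in both SMARCB1 libraries in 5 and lower in both in 3, against 30.3% and 28.9% of 27997 such regions genome-wide. Gained regions here were 375 to 1180 bp wide, with a lower fold of the SMARCB1 pair between 2.71 and 5.32. The nearest GFP peak was between 53 and 27250 bp away, so several were edges of a domain that GFP libraries also had. The region chr1:86093328-86094507 had the highest lower fold, 5.57 and 5.32 in SMARCB1 replicates 1 and 2, and a GFP peak 268 bp away. The next were chr1:86122255-86122629 with 4.73 and 5.12 and chr1:86121416-86122027 with 4.73 and 3.89. The lost region, chr1:85990167-85990527, had a fold of 6.02 and 4.65 in GFP replicates 1 and 2, and a SMARCB1 peak lay 302 bp from it.

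**Figure D2:**
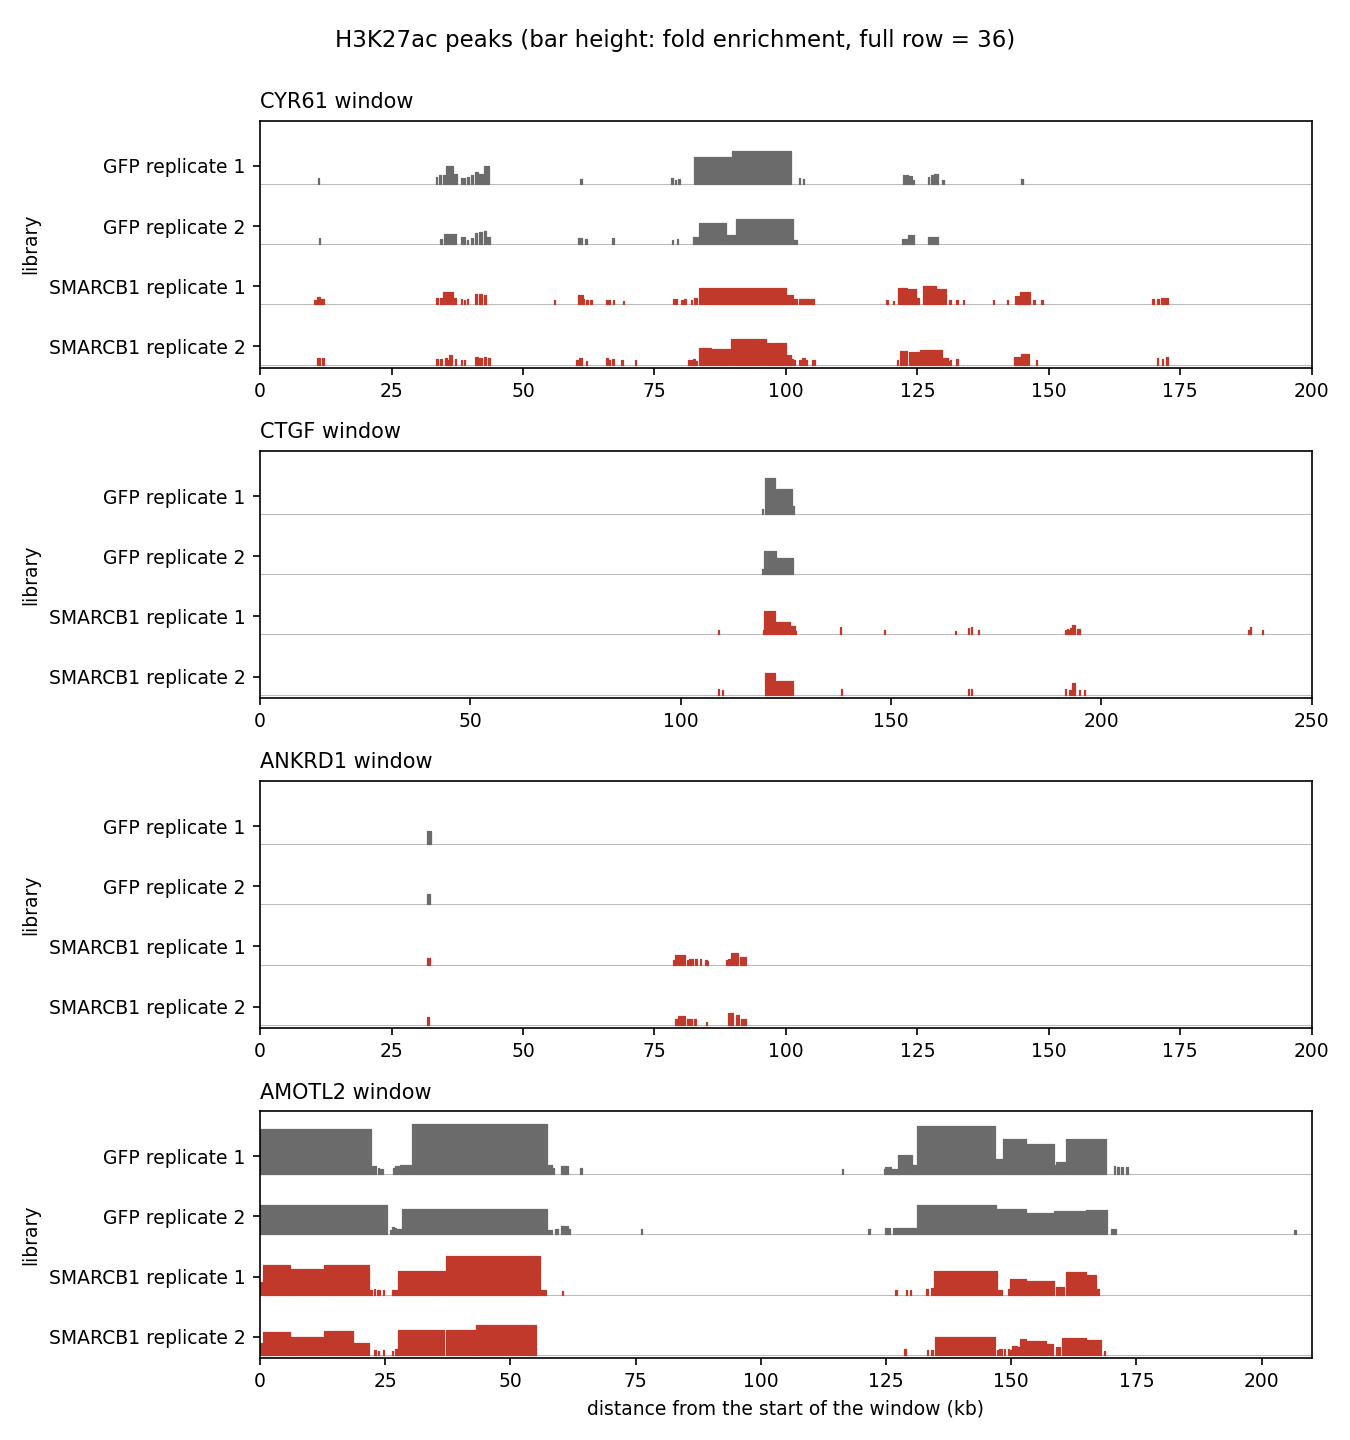
H3K27ac peaks along the 4 windows, 1 line per library, with the distance from the start of the window (kb) on the horizontal axis and fold enrichment as bar height on a shared scale. SMARCB1 libraries have peaks in parts of the CTGF and ANKRD1 windows where both GFP lists are empty, and more covered length in a block of the CYR61 window. In AMOTL2 the wide domains are present in all 4 libraries and are shorter with SMARCB1.

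CTGF encodes a secreted protein of the same family as CYR61, known for its part in matrix deposition and fibrosis. Covered length in its 250 kb window was 6933 and 6945 bp in GFP replicates 1 and 2, against 12706 and 9920 bp in SMARCB1 replicates 1 and 2. The GFP libraries were nearly equal and both lay below the SMARCB1 libraries, which differed from each other by more than the GFP pair did. The mean was 6939 ± 8.49 bp with GFP and 11313 ± 1970.0 bp with SMARCB1 (SD, n = 2 each), a difference of 4374 bp and a log2 ratio of 0.71 (exact permutation p = 0.333, adjusted 0.333). Peak numbers were 4 and 3 with GFP and 21 and 12 with SMARCB1 (exact permutation p = 0.333, adjusted 0.444). Both SMARCB1 lists were longer genome-wide, and the share of tiled windows with peak numbers apart was not computed. Limited to equal numbers of peaks, the covered length differed by 2669.5 bp, and the difference in peak number fell from 13 to 6.5.

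Acetylation that GFP cells already had at CTGF was of similar extent in all 4 libraries. The region with the highest fold, chr6:132269830-132272588, was covered over 2568, 2759, 2638 and 2454 bp, in the order GFP 1, GFP 2, SMARCB1 1 and SMARCB1 2. Its fold was 25.5, 16.0, 16.8 and 15.4, and its summits lay within 281 bp of each other. Neither of the 2 regions shared by all libraries in this window was longer or shorter in both SMARCB1 libraries. The whole block around them, chr6:132258882-132277425, was covered over 6933 and 6945 bp in the GFP libraries against 7794 and 7026 bp in the SMARCB1 libraries, a ratio of 1.07.

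Peaks found with SMARCB1 only at CTGF mostly stood apart from that block. The window held 21 merged regions, of which 18 had peaks in SMARCB1 libraries only, beside 89526 of the genome's 167933. Of the 21, 8 (38.1%) were gained, beside the genome's 17.5%. None was lost. Gained regions were 312 to 787 bp wide, and the nearest GFP peak was 10187 to 63071 bp away. The strongest was chr6:132343018-132343804, with a fold of 6.91 in SMARCB1 replicate 1 and 7.98 in SMARCB1 replicate 2 and summits 30 bp apart. It rested on 40 and 38 fragments at the summit. The mean of the pair, scaled to the background of each GFP library, would be 16.5 fragments in GFP replicate 1 and 33.9 in GFP replicate 2. The fewest called there at the usual background were 7 and 11. A gained region must have a peak in both SMARCB1 libraries, so such scaled counts tend to be high. The lowest among the 8 gained regions was 7.45 in GFP replicate 1, and an effect of depth was not tested. The other named gained regions were chr6:132318962-132319273, with 5.23 and 4.18, and chr6:132287922-132288360, with 5.57 and 4.09. Each was narrow, and 4 of the 8 gained regions lay in the block chr6:132341274-132346056, covered over 2472 and 1849 bp with SMARCB1. Neighbouring regions are not independent events, and joining peaks within 1 kb left 4 gained regions. The genome's share after joining was not computed.

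ANKRD1, a stretch-responsive protein of the sarcomere and nucleus, was the member with the least acetylation in GFP cells. Its 200 kb window was covered over 806 and 625 bp in GFP replicates 1 and 2, against 8147 and 6295 bp in SMARCB1 replicates 1 and 2. The GFP libraries each had 1 peak, and the SMARCB1 libraries, whose lists were longer genome-wide, had 14 and 9. Here too, the share of tiled windows with peak numbers apart was not computed. The mean covered length was 715.5 ± 128 bp with GFP and 7221 ± 1309.6 bp with SMARCB1 (SD, n = 2 each), a ratio of 10.1 and a log2 ratio of 3.34 (exact permutation p = 0.333, adjusted 0.333). Of the 5860 tiled windows with peaks in both groups, 96.1% had a smaller log2 ratio than this, against 66.3% for CTGF, 60.5% for CYR61 and 17.1% for AMOTL2. Windows with peaks in 1 group only have no such ratio and were left out, so these shares do not describe all 6962. ANKRD1 had a ratio only through the 1 peak of each GFP library. In the middle of its window, GFP peaks covered 0 bp. Limited to equal numbers of peaks, the difference of 6505.5 bp became 5787 bp, and that of 10.5 peaks became 7.5.

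**Figure D3:**
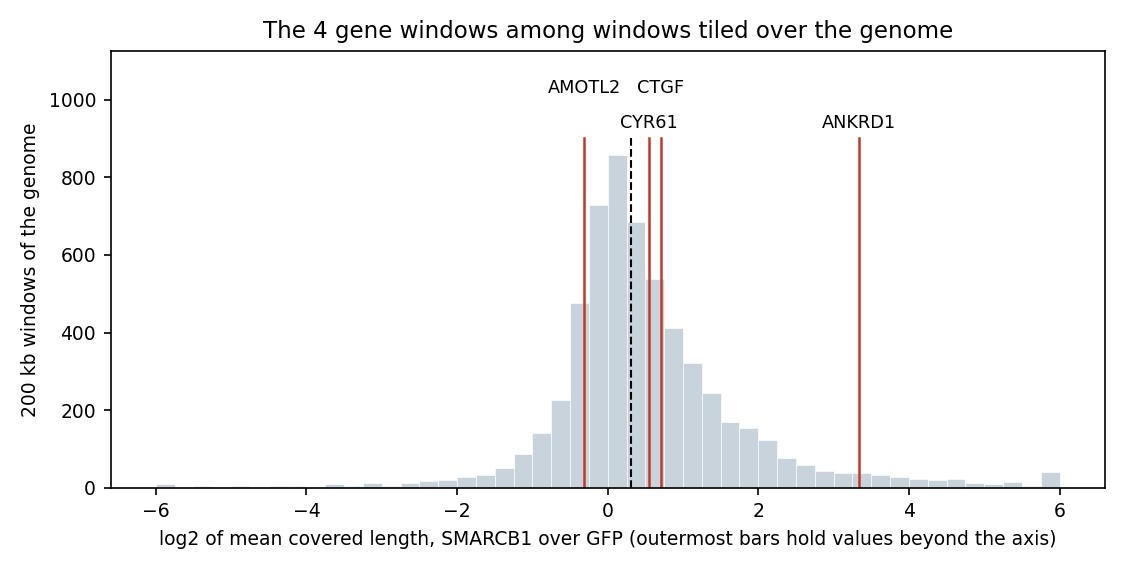
Number of 200 kb windows tiled over the genome, with peaks in both groups (vertical axis), by the log2 ratio of mean covered length, SMARCB1 over GFP (horizontal axis). The dashed line is their median, 0.31, and the outermost bars also hold values beyond the axis. Solid lines mark AMOTL2 at -0.31, CYR61 at 0.55, CTGF at 0.71 and ANKRD1 at 3.34, which alone of the 4 lies in the upper tail.

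The whole difference at ANKRD1 came from a single stretch of 13.86 kb, chr10:92678617-92692476. No GFP peak lay in it, and peaks covered 7542 bp of it in SMARCB1 replicate 1 and 5866 bp in SMARCB1 replicate 2. It held 11 of the window's 12 merged regions and all 7 gained ones, which is 58.3% of the window's regions beside the genome's 17.5%. These regions are neighbours within one stretch and are not independent events. Joining peaks within 1 kb left 2 gained regions, and the genome's share after joining was not computed.

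The 3 gained ANKRD1 regions with the highest lower fold had summits at most 44 bp apart between the SMARCB1 libraries. The first, chr10:92688938-92690160, had a fold of 8.42 and 8.19 in SMARCB1 replicates 1 and 2, from 49 and 39 fragments, with summits 7 bp apart. Beside it, chr10:92690408-92690983 had 7.82 and 7.07, with summits 22 bp apart. At the other end of the stretch, chr10:92678918-92680860 had 6.91 and 6.34, with summits 44 bp apart, and its nearest GFP peak was 46404 bp away. A gained region must have a peak in both SMARCB1 libraries, and summit distances over all gained regions were not computed. Scaled in the same way to the GFP backgrounds, the first region would have 18.4 fragments in GFP replicate 1 and 37.9 in GFP replicate 2, and the scaled counts of all 7 gained regions were at or above the fewest called in both GFP libraries. This scaling leaves out raised local background, and it starts from libraries in which a gained region must have a peak. The weakest gained region, chr10:92684686-92684916, had a fold of 2.22 in SMARCB1 replicate 2, over a raised local background of 6.64 fragments. The lowest fold called at the usual background was 2.46 in SMARCB1 replicate 2 and 2.83 in GFP replicate 1. These values are at unlike backgrounds and do not show whether GFP replicate 1 could have called the region.

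The 1 region that GFP and SMARCB1 cells shared in the ANKRD1 window went the other way. It was chr10:92631708-92632513, covered over 806, 625, 605 and 429 bp in GFP replicates 1 and 2 and SMARCB1 replicates 1 and 2. Its fold was 9.56 and 7.60 in the GFP lists and 4.56 and 5.12 in the SMARCB1 lists, on 26, 35, 26 and 24 fragments. Both SMARCB1 libraries were shorter than both GFP libraries, as were 28.9% of such regions in the genome.

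**Figure D4:**
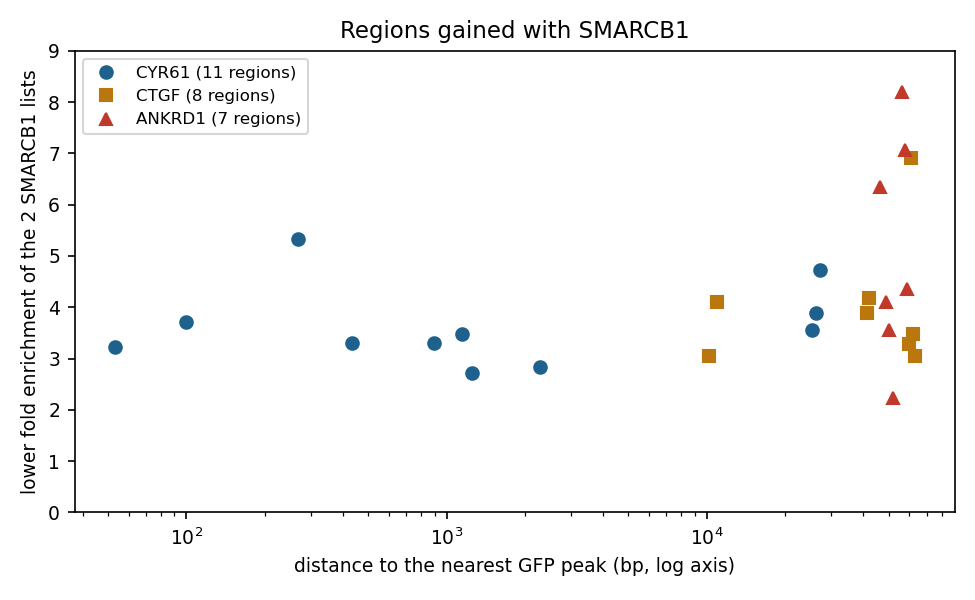
The 26 gained regions of the CYR61, CTGF and ANKRD1 windows, by distance to the nearest GFP peak (bp, log axis) and by the lower fold enrichment of the SMARCB1 pair. CYR61 regions reach down to 53 bp from a GFP peak, while all 7 ANKRD1 regions lie at least 46404 bp from one and include the highest fold, 8.19.

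The 3 windows with gained regions differed in how far those regions lay from acetylation of GFP cells. Gained regions lay at a median of 1146 bp from a GFP peak at CYR61, 50994 bp at CTGF and 52172 bp at ANKRD1. All 7 ANKRD1 distances run to the 1 region where GFP libraries had a peak, and 4 of the 8 CTGF regions lay in 1 block. Neighbouring regions are not independent observations, and the distance over all gained regions of the genome was not computed. The median lower fold of the gained regions was 3.48, 3.68 and 4.35 in the same order. Fragments scaled to the GFP backgrounds reached the fewest called in both GFP libraries for all 8 at CTGF, all 7 at ANKRD1 and 9 of 11 at CYR61. These counts come from the SMARCB1 libraries, in which a gained region must have a peak, so they tend to be high. The lowest at CTGF was 7.45 in GFP replicate 1, against 7 for the fewest called. The same share over all gained regions was not computed, and an effect of depth was not tested. Leaving out SMARCB1 replicate 2, the 3 windows together gained 57 regions in place of 26, and with the strongest 20000 peaks of each list they gained 7. The genome's share of gained regions was not computed under these settings.

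AMOTL2, which tethers YAP at junctions and the cytoskeleton, was the member with the greatest covered length in every library, and the 1 whose covered length was lower with SMARCB1. Its 210 kb window was covered over 101643 and 103623 bp in GFP replicates 1 and 2, against 84602 and 80622 bp in SMARCB1 replicates 1 and 2. That is 48.4%, 49.3%, 40.3% and 38.4% of the window in the same order. Both SMARCB1 libraries were below both GFP libraries although their lists were longer. The mean was 102633 ± 1400.1 bp with GFP and 82612 ± 2814 bp with SMARCB1 (SD, n = 2 each), a difference of -20021 bp and a log2 ratio of -0.31 (exact permutation p = 0.333, adjusted 0.333). Limited to equal numbers of peaks, the difference was -23300.5 bp. The number of peaks overlapped between the groups, at 31 and 24 with GFP and 30 and 31 with SMARCB1 (exact permutation p = 1).

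The strongest AMOTL2 domain was among the strongest of the genome in each library. It was chr3:134066396-134097348, 30953 bp long, and its best peak ranked 14 and 81 in the GFP lists and 1 and 29 in the SMARCB1 lists. In SMARCB1 replicate 1 it was the peak with the highest -log10 p of all 145533. Its fold was 35.2, 18.0, 26.9 and 21.1 in GFP replicates 1 and 2 and SMARCB1 replicates 1 and 2, from 116, 109, 159 and 102 fragments at the summit (95% Poisson intervals for counting error only: 95.9 to 139, 89.5 to 131, 135 to 186 and 83.2 to 124). Its covered length was 30517, 30706, 29848 and 27756 bp. The domain remained at nearly its full extent with SMARCB1. The widest single peak within it measured 27094 and 29084 bp in the GFP libraries against 18847 and 11859 bp in the SMARCB1 libraries. Over the whole window the widest measured 37158, 29084, 18847 and 12026 bp. That of GFP replicate 1, chr3:134025054-134062211, lies in another domain and begins outside the window.

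Most of the AMOTL2 difference lay in the second group of domains. The block chr3:134156230-134213214 was covered over 44501 and 44120 bp in the GFP libraries against 31499 and 30732 bp in the SMARCB1 libraries, a ratio of 0.702. Within it, chr3:134166035-134192901 alone was covered over 26244 and 26243 bp in the GFP libraries against 18230 and 16943 bp in the SMARCB1 libraries. This region was singled out after its values were seen. The block chr3:134024921-134104220, part of which lies outside the window, was covered over 72089, 73877, 66377 and 62429 bp, a ratio of 0.882. All 5 regions shared by the 4 libraries in this window were shorter in both SMARCB1 libraries, beside 28.9% of shared regions genome-wide.

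AMOTL2 gained no region and lost 3 of its 23 (13.0%), beside 3.94% in the genome. A further 14 regions had a peak in a single GFP library and in no other, and no region was found in SMARCB1 libraries only. Of the genome's 167933 merged regions, 23659 were of the first kind and 89526 of the second. The lost regions were chr3:134164809-134165887, with a fold of 5.31 and 4.65 in GFP replicates 1 and 2, chr3:134210442-134210920, with 6.02 and 3.61, and chr3:134097442-134098322, with 6.36 and 3.38. All 3 flanked a wide domain, with a SMARCB1 peak at most 1770 bp away. Leaving out 1 GFP library, the lost AMOTL2 regions numbered 12 without GFP replicate 1 and 13 without GFP replicate 2. Joining peaks within 1 kb left none.

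The authors' stitched tables, which join peaks away from transcription start sites and mark super-enhancers, gave a further description of these windows. Stitched regions marked as super-enhancers numbered 1 and 0 with GFP and 3 and 2 with SMARCB1 over the 4 windows. Of all stitched regions, 3.37% and 3.35% were marked in the GFP tables against 5.55% and 5.02% in the SMARCB1 tables, so marks were more frequent with SMARCB1 across the genome too. At CYR61, the marked regions were chr1:86005859-86055270 and chr1:86069127-86098877 in SMARCB1 replicate 1 and chr1:86010060-86055536 in SMARCB1 replicate 2, and none was marked with GFP. At AMOTL2, the second group of domains was marked in GFP replicate 1 and in both SMARCB1 libraries, and the like region of GFP replicate 2, chr3:134161473-134210920, was not. CTGF and ANKRD1 had no marked region in any table. The strongest CTGF peak of SMARCB1 replicate 2, chr6:132270058-132272511 with a fold of 15.4, lay in none of its stitched regions. Stitched regions of the other libraries spanned that place, so those of CTGF are not alike between libraries. The strongest AMOTL2 domain, chr3:134066396-134097348, was entered in all 4 only as single, unjoined peaks, none of them marked. The ANKRD1 stretch appeared with SMARCB1 only, as chr10:92683598-92692416 from 8 peaks and chr10:92684717-92692476 from 4 peaks.

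The peaks missing from those tables also differed at ANKRD1. The shared region at chr10:92631708-92632513 was absent from all 4 tables, and the SMARCB1 peaks between 92678617 and 92683039, which include the gained region at chr10:92678918-92680860, were absent from both SMARCB1 tables. The headers call the tables TSS-distal. The distance used for leaving peaks out is not given in the sources used here, and no gene start was placed in hg19. The windows also reach toward other genes. In RefSeq, the coding neighbours are DDAH1 and ZNHIT6 for CYR61, ENPP1 and MOXD1 for CTGF, RPP30 and PCGF5 for ANKRD1, and RYK and ANAPC13 for AMOTL2, and no peak was assigned to a member rather than a neighbour.

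The direction of the covered-length difference was the same in each window under every setting run, with other peak thresholds and without each library in turn. With the strongest 20000 peaks of each list, a setting added after seeing the data, CTGF differed by 485 bp and ANKRD1 by 2247 bp. With that setting the share of tiled windows with a higher covered length in both SMARCB1 libraries was 22.3%, and 43.1% had a lower one.

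**Figure D5:**
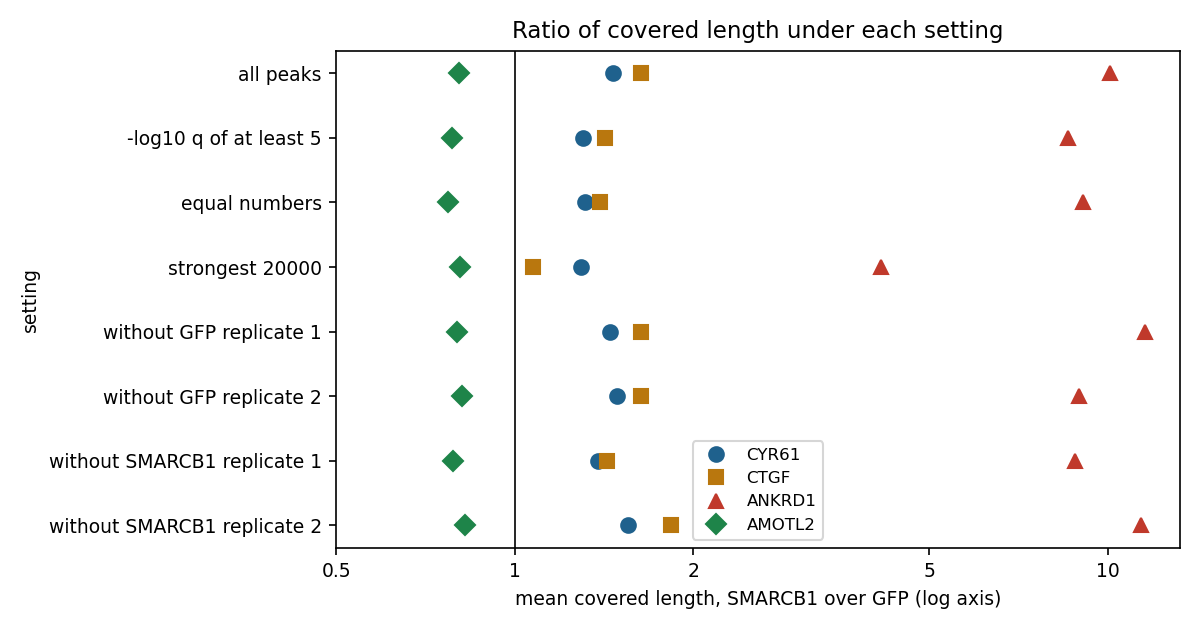
Ratio of mean covered length, SMARCB1 over GFP (horizontal log axis), in the 4 windows under each setting (vertical axis); the vertical line marks a ratio of 1. AMOTL2 stays below 1 and the other 3 stay above it in all 8 settings drawn, with CTGF closest to 1 for the strongest 20000 peaks.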

How the data were processed

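H3K27ac peak lists of 4 libraries and 4 tables of stitched regions were used. Groups came from the labels, by antibody target and by which gene was induced. The 4 genes, their windows and the motifs were chosen with earlier results of these data known.

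Per the file names, the authors ran MACS2 per library on hg19 and applied a filter. The submitters' processing notes also name BWA 0.7.12-r1039, SAMtools and bedtools. MACS2's version and control, and how peaks were filtered, are not given in the sources used here. The deposited fold enrichment is a ratio of a peak's summit over the caller's background. For each peak the authors also give a -log10 p, used here to rank peaks within a list, and a -log10 q. Stitched tables came from ROSE, per the file headers, and their joined-peak numbers and super-enhancer marks were used as deposited. Their signal was not used, nor were 4 columns of per-sample values that matched no sample by name.

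Peaks overlapping by at least 1 bp were merged over the 4 lists. Covered length counted only base pairs inside a window. Group means were set against each other in an exact permutation test, two-sided, with libraries as units, adjusted by Benjamini-Hochberg over the 4 windows. Regions named were the merged region with the highest fold in any list, and up to 3 gained and 3 lost regions per window by the lower fold of the pair. Fragments at a summit and the background were solved from the fold and p of each peak, within 0.001, for 100% of peaks in each list. SMARCB1 replicate 1 needed a scale of 0.855. No read totals were used. On simulated data, the counting found all 200 gained and all 200 lost regions placed among 5000 intervals.

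Other settings were equal numbers of peaks (79555 per list), peaks with -log10 q from 5 upward, the middle of each window, other overlap rules, the replicate number as a block and leaving out each library. The strongest 20000 peaks were a later addition, chosen after seeing the data. Counts over other Hippo pathway genes and the naming of genes with like profiles were not run, as no hg19 annotation was used here. Scripts ran in Python 3.11.15 with scipy 1.17.1, numpy 2.4.6, matplotlib 3.10.9 and pandas 2.3.3.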

Additional observations from a re-analysis of the deposited data

How the results depend on the processing

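Covered length kept its direction in each of the 4 windows under every setting run. Leaving out each library in turn, the difference (SMARCB1 minus GFP) ranged from 11770.5 to 17032.5 bp at CYR61, from 2981 to 5767 bp at CTGF, from 5579.5 to 7431.5 bp at ANKRD1 and from -22011 to -18031 bp at AMOTL2. With a -log10 q of at least 5 the difference was 8685 bp at CYR61 and 2798.5 bp at CTGF, and in the middle of the CTGF window it was 1806 bp. The difference in peak number ranged from 22.5 to 26.5 at CYR61, 8.5 to 17.5 at CTGF, 8 to 13 at ANKRD1 and -0.5 to 6.5 at AMOTL2. At AMOTL2 that difference changed sign, from 3 to -2 with a -log10 q of at least 5, -6.5 with equal numbers of peaks and -0.5 without GFP replicate 2. The cause was not tested. Gained regions over the 4 windows numbered 26. They numbered 14 with a -log10 q of at least 5, 16 with equal numbers and 18 in the middle of the windows. They numbered 7 with the strongest 20000 peaks, 8 with peaks joined within 1 kb and 38 with a reciprocal overlap of 50%. Without 1 library they numbered 29 to 57. Lost regions numbered 4, against 4 with a -log10 q of at least 5, 6 with equal numbers and 3 with the strongest 20000 peaks. They numbered 2 in the middle of the windows, 0 with peaks joined, 9 with a reciprocal overlap of 50% and 4 to 16 without 1 library. Requiring a peak in 1 library in place of 2 raises the counts without 1 library by construction. Shares of gained and lost regions over the genome were computed for the full lists only, so these counts have no such share beside them. Super-enhancer marks differed by 2, and by 1.5 to 2.5 without 1 table. Of 13 named gained and lost regions, 12 kept their call with a -log10 q of at least 5, 13 with equal numbers and 4 with the strongest 20000 peaks. Tiled windows higher and lower in both SMARCB1 libraries were 42.6% and 24.4% with a -log10 q of at least 5, 40.2% and 28.7% with equal numbers, and 22.3% and 43.1% with the strongest 20000 peaks.

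With the replicate number as a block, the differences were the same by construction, 14401.5, 4374, 6505.5 and -20021 bp, with an exact sign-flip p of 0.5, the smallest that 2 pairs allow. The differences in peak number were 24.5, 13, 10.5 and 3. The numbers were not shown to pair the libraries: the labels tie them to no batch, and deviations of same-numbered libraries had a correlation of 0.24 over 5547 tiled windows. The 2 libraries per group limit what any of these values can show, and fold values of separately called lists were not tested against each other.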

Other observations

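Regions found in 1 group only were often in a single library: genome-wide this held for 67.2% of regions with peaks in SMARCB1 libraries only and 78.1% of those with peaks in GFP libraries only. At CTGF, 10 of the 18 regions with peaks in SMARCB1 libraries only were in 1 library, among them the 3 of the block chr6:132384794-132388458, which covered 815 bp in SMARCB1 replicate 1 and 0 bp in SMARCB1 replicate 2. At CYR61, 19 of 30 such regions were in 1 library, and at ANKRD1 4 of 11. At AMOTL2, 14 of 17 regions with peaks in GFP libraries only were in 1 library. Summits of the strongest CYR61 domain were 4217 bp apart across the 4 libraries, with that of SMARCB1 replicate 2 at 86042520 and the others between 86046598 and 86046737. The strongest AMOTL2 domain had its summit at 134092283 in GFP replicate 2 and between 134093084 and 134093097 in the other libraries.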
